A study of Homo sapiens with 12 samples.

Results

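Aldehyde dehydrogenases oxidise reactive aldehydes to carboxylic acids, and 9 genes of the family were followed here: ALDH1A1, ALDH1A2, ALDH1A3, ALDH1B1, ALDH2, ALDH3A1, ALDH3A2, ALDH3B1 and ALDH7A1. They were chosen by name, as a fixed list of symbols, from a table of 20003 genes. RNA-seq profiles came from PC9, HCC827 and H1975, long-established human lines of non-small-cell lung cancer that are known to carry activating EGFR mutations. In each line, cells made to overexpress ZNF263, a KRAB-domain zinc finger protein that binds DNA, were set against cells with a control vector, giving 12 libraries in 6 groups of 2. For all 6 groups, controls included, the labels give stepwise osimertinib, an EGFR inhibitor, as the treatment, and DMEM as the medium. The design asks what ZNF263 changes in such cells. The labels give neither the vector's promoter nor whether a group is 1 clone or a pool, nor what the letters OR added to the line names in the titles stand for. They number the libraries without saying that each had a culture of its own, and p-values therefore measure the spread between libraries, which may be technical.

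ALDH1A1, ALDH1A2 and ALDH1A3 are cytosolic enzymes that oxidise retinaldehyde to retinoic acid, the ligand of the nuclear retinoic acid receptors. ALDH1B1 and ALDH2 are mitochondrial and oxidise acetaldehyde and products of lipid peroxidation, and ALDH3A1, ALDH3A2, ALDH3B1 and ALDH7A1 act on aromatic, fatty and amino acid-derived aldehydes. High aldehyde dehydrogenase activity is widely used to isolate stem-like cells from lung tumours, where ALDH1A1 and ALDH1A3 are the enzymes most often named as its source.

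Values are FPKM, fragments scaled to gene length and to the sequencing depth of the library, so that levels can be compared between genes as well as between libraries. Tests were made on log2(FPKM + 1), where a log2 change is ZNF263 minus control and is too small for genes at low levels. Genes were called where the limma fit across all genes gave an adjusted p under 0.05. The FPKM of a gene were whole multiples of the worth of 1 read for 98.6 to 99.5% of genes, depending on the line, so reads could be read back from the values. For the gene with the median worth, 1 FPKM stood for 65.1 to 80.2 reads in PC9 and HCC827 libraries and 119 to 129 reads in H1975 libraries. The worth of a read stood in 1 fixed ratio between HCC827 and H1975 for 85.4% of 14113 genes, whereas in PC9 it departed from its median relation by over 1.5 times for some genes, so ZNF263 was compared with control within a line. ZNF263 itself rose in each line, with log2 changes of 1.96 in PC9 (limma adjusted p = 2.83e-09), 0.62 in HCC827 (4.17e-05) and 1.89 in H1975 (5.95e-11), each ± 0.061 (SE).

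Some marker genes changed with ZNF263 in each line, and most epithelial markers were near 0 in the libraries labelled PC9. In the libraries labelled PC9, 10 of 14 epithelial genes lay under 0.5 FPKM in every library, among them EPCAM, the epithelial adhesion molecule, which peaked at 0.414 FPKM, while the simple-epithelium keratins KRT8 and KRT18 averaged 1608 and 1905 FPKM with ZNF263 and 1045 and 1216 FPKM in control. Each of the 14 passed 1 FPKM somewhere in HCC827 and in H1975. NKX2-1, the lung lineage factor, averaged 0.353 FPKM with ZNF263 and 0.0596 FPKM in control in PC9. Of the PC9 markers, 3 of 14 epithelial and 3 of 10 mesenchymal genes were called, all higher with ZNF263. Over all genes 7.21% were called higher and 4.12% lower in PC9. The identity of the libraries labelled PC9 was not tested and cannot be settled from FPKM, so every PC9 value below is that of the libraries so labelled. In H1975, where limma called 32.1% of all genes in each direction, 13 of the 14 epithelial genes fell with ZNF263 and 1 rose. Their sums were 1946 and 1929 FPKM in the ZNF263 libraries and 4362 FPKM in both control libraries. Of 10 mesenchymal genes in H1975, 6 rose and 2 fell, with sums of 1743 and 1733 FPKM in the ZNF263 libraries and 908 and 881 FPKM in the control libraries. Endothelial genes summed to at most 0.840 FPKM in any library, fibroblast genes to at most 16.1 FPKM and immune genes to at most 85.5 FPKM, with PTPRC, the common leukocyte antigen, under 0.05 FPKM. The fibroblast sum of HCC827 was mostly LUM, a matrix proteoglycan, with 14.4 FPKM with ZNF263 and 14.7 FPKM in control. In H1975 the macrophage marker CD14 averaged 20.2 FPKM with ZNF263 and 3.09 FPKM in control and rose by 2.40 (limma adjusted p = 3.15e-07), while CD68, a lysosomal protein that made up most of the immune sum, averaged 61.4 FPKM with ZNF263 and 82.0 FPKM in control and fell by 0.41 (limma adjusted p = 0.000159). PDGFRB, a pericyte and fibroblast receptor, averaged 1.62 FPKM with ZNF263 and 0.119 FPKM in control in H1975 and rose by 1.22, and LUM fell by 1.33. PDGFRB reached 1 FPKM, the level needed for a test, only in the H1975 ZNF263 libraries, the group where it is high. Over all genes tested in HCC827, 13.0% were called higher and 6.44% lower. In HCC827, 4 of 5 lung adenocarcinoma lineage genes tested rose and 0 fell. Among them SFTPB, a surfactant protein, had 33.5 FPKM with ZNF263 and 10.6 FPKM in control (change 1.56, limma adjusted p = 3.84e-06). In H1975 0 of these 5 rose and 2 fell, FOXA2 by 2.18 and FOXA1 by 0.84. Of 14 epithelial genes in HCC827 4 rose and 2 fell, the keratins KRT7 by 0.64 and KRT19 by 0.57, and of 10 mesenchymal genes 1 rose and 3 fell, VIM, SNAI2 and CDH2. Neighbouring genes moved together in H1975: the median change of the 10 tested genes on each side was beyond 0.3 in either direction for 21.5% of 12220 genes, against 0.0327% in HCC827 and 0 of 12504 genes in PC9. The part of these differences in the results below was not tested.

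The promoters of ALDH1A1 and ALDH1A3, the most abundant members in PC9 and in HCC827 and H1975 control cells, are printed here because they differ in base composition. Both come from RefSeq (GRCh38.p14) and run from 250 bases before to 50 after the annotated start, written along the gene's own strand. ALDH1A1 lies on the minus strand at chr9:72953004-72953303, ALDH1A3 on the plus strand at chr15:100879581-100879880.
ALDH1A1: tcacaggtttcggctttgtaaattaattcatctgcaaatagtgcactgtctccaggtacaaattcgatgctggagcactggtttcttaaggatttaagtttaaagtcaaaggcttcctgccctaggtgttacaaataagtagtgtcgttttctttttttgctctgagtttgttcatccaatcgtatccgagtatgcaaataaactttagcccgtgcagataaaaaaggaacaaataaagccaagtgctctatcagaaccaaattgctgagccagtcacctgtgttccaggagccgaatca
ALDH1A3: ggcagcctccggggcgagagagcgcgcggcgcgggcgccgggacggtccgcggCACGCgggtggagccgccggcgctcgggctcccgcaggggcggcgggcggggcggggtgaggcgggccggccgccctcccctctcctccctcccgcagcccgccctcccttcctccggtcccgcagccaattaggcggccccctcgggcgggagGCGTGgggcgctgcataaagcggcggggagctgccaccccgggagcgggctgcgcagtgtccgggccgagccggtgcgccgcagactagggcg
Capitals mark matches on either strand to GCGTG, the core of the element bound by the aryl hydrocarbon receptor. ALDH1A3 held 2 of them, at -197 on the minus strand and at -43 on the plus strand relative to the annotated start, and ALDH1A1 held none. GC made up 40.3% of the bases in the ALDH1A1 window and 81.7% in that of ALDH1A3, against a median of 58.3% over 27305 promoters. Of 7 members with an entry, 2 held GCGTG, ALDH1A2 and ALDH1A3, and 36.3% of all promoters held it. None of the 7 held GGAGGAGG, the core of the ZNF263 motif, found in 10.4% of all promoters, or TGACNNNGC, the core of the antioxidant response element, found in 13.6%, on either strand. None of the matches overlapped another motif in these windows, and an absent match says only that these letters are not in this window.

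The lines differed in which of the 9 transcripts was most abundant. In PC9, ALDH1A1 led in both groups, with 2228 ± 194 FPKM in ZNF263 cells and 1912 ± 23.7 FPKM in control cells (SD, n = 2 each), before ALDH3A1, ALDH2, ALDH3A2, ALDH3B1, ALDH1B1, ALDH7A1 and ALDH1A3, an order in which the places of ALDH2 and ALDH3A2 depend on the worth of a read, as given below. In HCC827, ALDH1A3 led with 197 ± 7.46 FPKM in ZNF263 cells and 187 ± 6.25 FPKM in control cells, before ALDH3B1, ALDH3A2, ALDH1B1, ALDH7A1, ALDH2, ALDH1A1 and ALDH3A1. In H1975 control cells ALDH1A3 also led, before ALDH3B1, ALDH1B1, ALDH3A2 and ALDH7A1. In H1975 cells with ZNF263, ALDH1A3 stood in place 5, and ALDH1B1 led with 34.0 ± 1.02 FPKM, before ALDH3B1, ALDH3A2 and ALDH7A1. ALDH2, ALDH1A1, ALDH3A1 and ALDH1A2 closed the order in both H1975 groups. Neighbours in these orders did not overlap between libraries, apart from ALDH3A1 and ALDH1A2 in HCC827 cells with ZNF263 and ALDH1A1 and ALDH3A1 in H1975 cells with ZNF263.

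**Figure D1:**
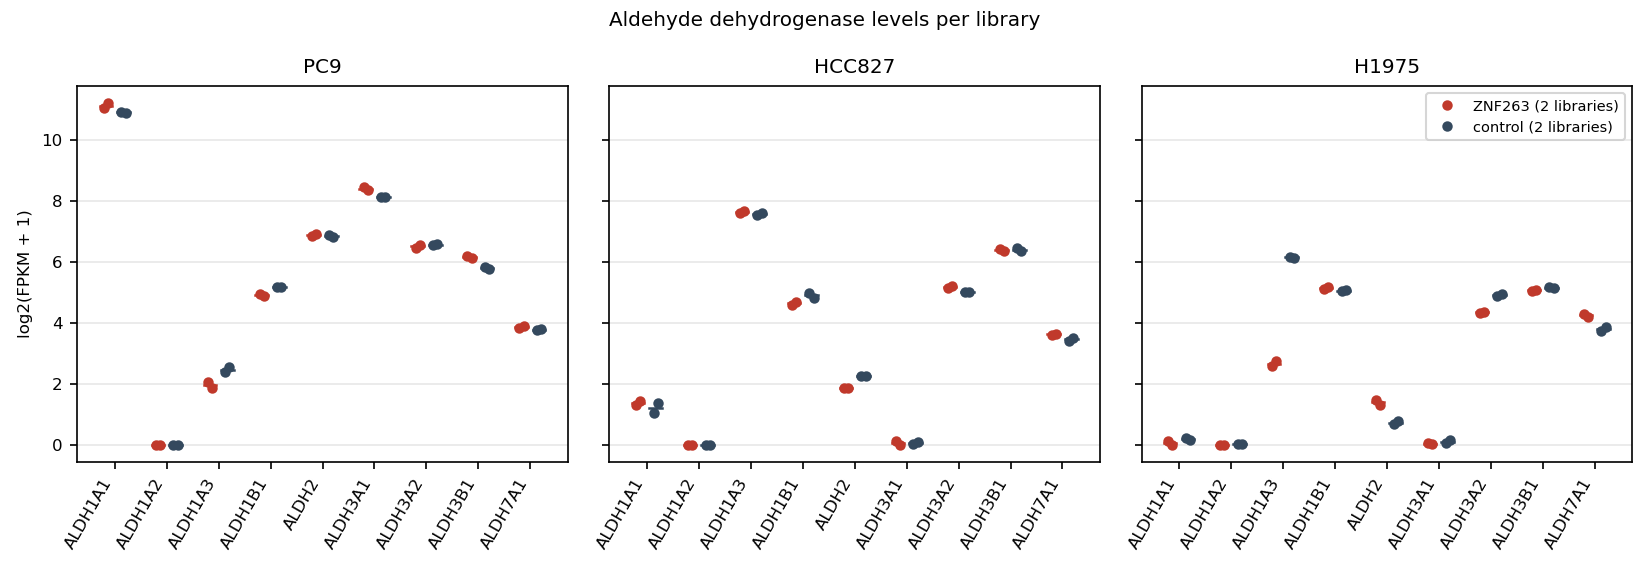
Level of each of the 9 genes in every library, as log2(FPKM + 1), in 1 panel per line, with ZNF263 libraries in red left of control libraries in dark blue and a short bar at each group's mean. ALDH1A1 is highest in PC9 (2091 and 2365 FPKM with ZNF263, 1928 and 1895 FPKM in control), ALDH1A3 is highest in HCC827 and in H1975 control cells, and the H1975 ZNF263 libraries of ALDH1A3 lie far below their controls.

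ALDH1A1 made up 75.8 and 78.5% of the summed FPKM of the 9 genes in PC9 libraries with ZNF263, and 76.4 and 76.2% in PC9 control libraries. ALDH1A3 made up 55.1 and 56.3% in HCC827 libraries with ZNF263 and 52.9 and 55.4% in their controls. In H1975 it made up 4.53 and 5.09% with ZNF263, and 39.6 and 38.4% in control libraries. The sum of the 9 genes was 2886 ± 181 FPKM in PC9 with ZNF263 and 2506 ± 26.1 FPKM in control (SD, n = 2 each). The sums were 354 ± 7.85 FPKM in HCC827 with ZNF263 and 346 ± 0.414 FPKM in control. In H1975 the sum was 111 ± 1.74 FPKM with ZNF263 and 179.98 ± 1.13 FPKM in control, and the difference between these means is close to that of ALDH1A3 alone, which averaged 5.32 FPKM with ZNF263 and 70.2 FPKM in control. In bulk RNA, fewer cells that make a transcript and less of it per cell cannot be told apart.

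**Figure D2:**
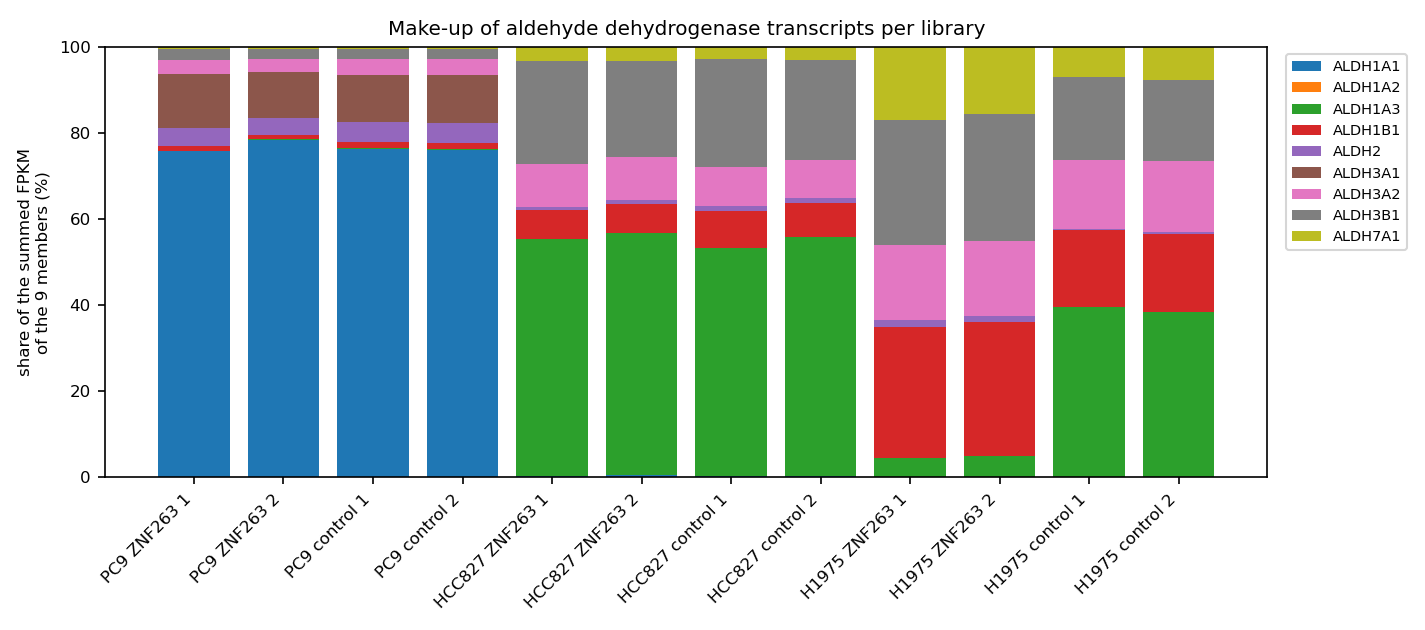
Share of each gene in the summed FPKM of the 9 genes, in percent, as 1 stacked bar per library, with ZNF263 libraries left of the control libraries of each line. ALDH1A1 fills 75.8 to 78.5% of each PC9 bar, ALDH1A3 fills over 50% of each HCC827 bar, and in H1975 ALDH1A3 shrinks to 4.53 and 5.09% with ZNF263, against 39.6 and 38.4% in control.

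Levels across lines come from separately processed columns. In control cells ALDH1A1 averaged 1912 FPKM in PC9, 1.30 FPKM in HCC827 and 0.136 FPKM in H1975, and ALDH3A1 averaged 279.8, 0.0386 and 0.0673 FPKM in the same lines. ALDH2 averaged 114 FPKM in PC9 control cells and 3.73 FPKM in HCC827 control cells, a ratio of 30.5. One read of ALDH2 was worth 4.70 times more FPKM in PC9 than in HCC827, relative to the median gene, and with the same worth in both lines the ratio was 6.49. The corresponding ratio of PC9 to H1975 control cells was 174, or 37.0 with the same worth. For ALDH3A2 the ratio of PC9 to HCC827 was 3.004 as deposited and 1.59 with the same worth, although a common factor in its PC9 reads could not be settled. The order within PC9 rests on that worth. With a read worth as much as in HCC827, ALDH2 averaged 25.1 FPKM with ZNF263 and 24.2 FPKM in control in PC9, below ALDH1B1 (29.2 FPKM with ZNF263 and 35.3 FPKM in control), and ALDH3A2 averaged 47.5 FPKM with ZNF263 and 49.4 FPKM in control, below ALDH3B1 (69.8 FPKM with ZNF263 and 54.8 FPKM in control).

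In PC9, 4 of the 8 members tested were called, 2 higher and 2 lower with ZNF263, where limma called 7.21% of 12623 genes higher and 4.12% lower. The median change of the 8 was 0.06 and that of all genes tested was 0.00. In HCC827, 3 of 8 were called, 1 higher and 2 lower, against 13.0% of 12266 genes higher and 6.44% lower. Scaling moves that background, from 1596 higher and 790 lower calls as deposited to 1114 and 1211 with median-of-ratios scaling and 1059 and 1046 with quantile normalization. The median of the 8 was 0.04, as was that of all genes tested. In H1975, 4 of 8 were called, 2 higher and 2 lower, against 32.1% of 12258 genes higher and 32.1% lower, so a call in this line is common. The median of the 8 was -0.07 and that of all genes 0.00. ALDH1A2 did not reach the minimum, 1 FPKM in 2 or more libraries, and was not tested.

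The retinaldehyde dehydrogenases moved most in H1975, through ALDH1A3 (chromosome 15 at 100877714 to 100916626, plus strand, GENCODE on GRCh38, as for the positions below). In H1975, ALDH1A3 had 4.95 and 5.70 FPKM with ZNF263, from 583 and 675 reads, against 70.9 and 69.5 FPKM in control libraries, from 8488 and 7695 reads. Both ZNF263 libraries lay far under both controls, at 0.0758 of their mean. The log2 change was -3.50 ± 0.079 (SE, limma adjusted p = 5.81e-12). The 10 tested genes on each side on the chromosome had a median change of -0.32, and less that median ALDH1A3 stood at -3.17. In PC9, ALDH1A3 had 3.14 and 2.62 FPKM with ZNF263, from 206 and 178 reads, against 4.23 and 4.83 FPKM in control, from 301 and 361 reads. The groups did not overlap, and the change was -0.51 ± 0.079 (limma adjusted p = 0.00106), a change that did not pass in a fit on the 4 PC9 libraries (limma adjusted p = 0.0924). In HCC827, where the gene is most abundant, it had 192.1 and 202.7 FPKM with ZNF263 and 183.0 and 191.9 FPKM in control. These groups lay side by side without overlap, and the change of 0.07 ± 0.079 was not called (limma adjusted p = 0.560). Antisense transcripts are annotated across ALDH1A3, and the strand setting of the counting is not given in the sources used here, so their reads cannot be told apart.

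ALDH1A1 (chromosome 9 at 72900662 to 73080442, minus strand), the most abundant enzyme of PC9, had 2091 and 2365 FPKM with ZNF263 and 1928 and 1895 FPKM in control. Both ZNF263 libraries were above both controls, yet they differed from each other by more than the lower of them from its nearest control. The change of 0.22 ± 0.095 was not called (limma adjusted p = 0.177). In HCC827 ALDH1A1 had 1.46 and 1.67 FPKM with ZNF263, from 54 and 62 reads, and 1.06 and 1.55 FPKM in control, from 40 and 56 reads. The groups overlapped, and the change of 0.16 was not called (limma adjusted p = 0.260), although it was without HCC827 control replicate 2 (0.32, limma adjusted p = 0.0217). In H1975 the gene rested on 7 and 0 reads with ZNF263 and 11 and 8 reads in control, and its change of -0.12 was not called (limma adjusted p = 0.309). With a pseudocount of 0.1 that change stood at -0.74 (limma adjusted p = 0.0207). Less the median of its neighbours it stood at -0.25 (limma adjusted p = 0.0384, without the spread of that median).

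ALDH1A2 (chromosome 15 at 57953424 to 58497866, minus strand) was listed at 0 in every PC9 and HCC827 library and in both H1975 libraries with ZNF263. The H1975 control libraries held 1 read each. A difference was not detectable at this depth. The coding sequences of ALDH1A1, ALDH1A2 and ALDH1A3 were identical over 66.7 to 68.5% of their alignments in pairs, with the longest shared runs at 20 to 24 bases.

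**Figure D3:**
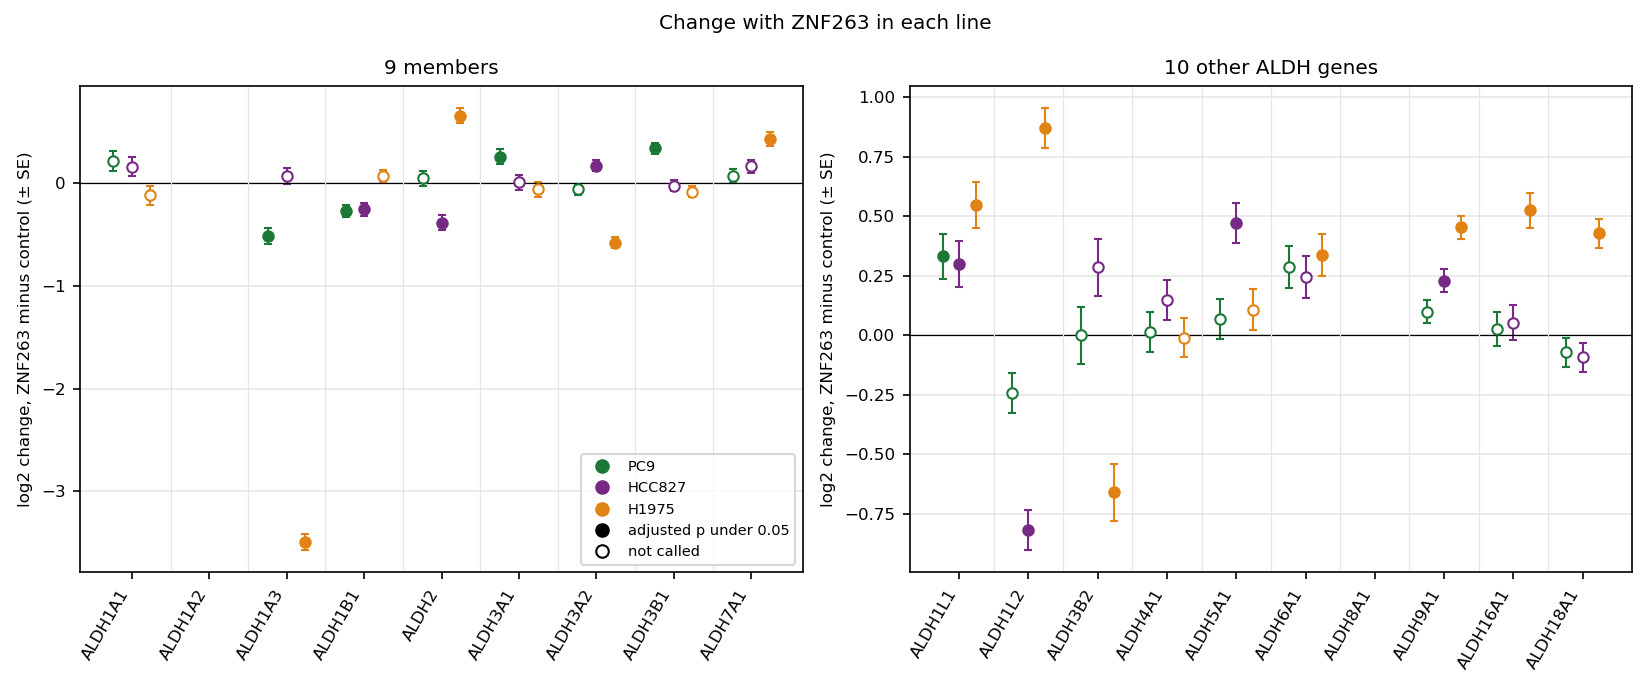
Log2 change, ZNF263 minus control, with its standard error, for the 9 genes (left) and 10 other ALDH genes (right), coloured by line, filled where called at an adjusted p under 0.05. The H1975 change of ALDH1A3 (-3.50) lies far below every other point, while the other changes of the 9 genes lie between -0.58 and 0.66. ALDH1A2 and ALDH8A1 were not tested and have no points.

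The mitochondrial enzymes ALDH2 and ALDH1B1 were called lower in HCC827, and ALDH2 was called higher in H1975. ALDH2 (chromosome 12 at 111766887 to 111817529, plus strand), the main acetaldehyde dehydrogenase of alcohol metabolism, had 2.64 and 2.60 FPKM with ZNF263 and 3.71 and 3.74 FPKM in control in HCC827. Each ZNF263 library was below each control, and the change was -0.39 ± 0.073 (SE, limma adjusted p = 0.00308), or limma adjusted p = 0.0545 in a fit on the 4 HCC827 libraries. In H1975 ALDH2 had 1.78 and 1.45 FPKM with ZNF263, from 579 and 473 reads, against 0.594 and 0.711 FPKM in control, from 196 and 217 reads. The ZNF263 libraries were both higher, at 2.48 times the control mean, with a log2 change of 0.66 ± 0.073 (limma adjusted p = 4.39e-06). In PC9, where ALDH2 is abundant, it had 115.1 and 120.2 FPKM with ZNF263 and 116.1 and 111.05 FPKM in control, which overlapped, and the change of 0.05 was not called (limma adjusted p = 0.750).

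ALDH1B1 (chromosome 9 at 38392664 to 38398661, plus strand), a mitochondrial enzyme also known from intestinal progenitor cells, had 29.7 and 28.6 FPKM with ZNF263 and 35.3 FPKM in each control library in PC9. In HCC827 it had 23.2 and 24.8 FPKM with ZNF263 and 30.3 and 27.3 FPKM in control. The ZNF263 libraries were lower in both lines, with changes of -0.27 ± 0.060 in PC9 and -0.25 ± 0.060 in HCC827 (SE, limma adjusted p = 0.0120 and 0.0113). In PC9 the gene did not pass without control replicate 1 (limma adjusted p = 0.0767), control replicate 2 (0.0879) or ZNF263 replicate 2 (0.0867), and less its neighbours it stood at -0.14 (0.173). In HCC827 it did not pass without control replicate 1 (-0.18, limma adjusted p = 0.0630), without ZNF263 replicate 1 (-0.21, 0.106) or in a fit on the 4 HCC827 libraries (0.136). In H1975 it had 33.2 and 34.7 FPKM with ZNF263 and 31.9 and 32.6 FPKM in control, without overlap, and the change of 0.07 was not called (limma adjusted p = 0.319). Its neighbours had a median of -0.16, and less that median it stood at 0.23 (limma adjusted p = 0.00480, without the spread of the median). The coding sequences of ALDH1B1 and ALDH2 were identical over 72.4% of their alignment, the highest value among pairs of the 9 genes.

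Of the 3 enzymes for aromatic and fatty aldehydes, ALDH3B1 and ALDH3A1 were called higher in PC9, beside 7.21% of all genes. The call of ALDH3B1 held under 19 of 20 alternatives and that of ALDH3A1 under 10. ALDH3B1 (chromosome 11 at 68008578 to 68029282, plus strand), a membrane-associated enzyme that oxidises aldehydes from lipid peroxidation, had 71.9 and 68.0 FPKM with ZNF263 and 55.97 and 53.9 FPKM in control in PC9. There was no overlap, and the change was 0.34 ± 0.054 (SE, limma adjusted p = 0.00129), or 0.0522 as the limma adjusted p in a fit on the 4 PC9 libraries. In HCC827 it had 83.8 and 80.8 FPKM with ZNF263 and 86.8 and 80.4 FPKM in control, which overlapped (change -0.02, limma adjusted p = 0.828). In H1975 it had 31.98 and 33.1 FPKM with ZNF263 and 34.8 and 34.2 FPKM in control, a change of -0.08 that was not called (limma adjusted p = 0.207). The neighbours of ALDH3B1 in H1975 had a median of -0.31, and less that median the sign turned, to 0.23 (limma adjusted p = 0.00296). That p-value used the SE of ALDH3B1 alone and leaves out the spread of the median, so it is too small. ALDH3B1 and its near copy ALDH3B2 were identical at 87.9% of aligned coding positions with a shared run of 64 bases, so their reads may be divided uncertainly.

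ALDH3A1 (chromosome 17 at 19737984 to 19748943, minus strand), an enzyme for aromatic and medium-chain aldehydes that is induced by smoke in airway epithelium, had 347 and 323 FPKM with ZNF263 and 279 and 281 FPKM in control in PC9. Both ZNF263 libraries were higher, and the change was 0.26 ± 0.073 (SE, limma adjusted p = 0.0399). With a pseudocount of 0.1 it was 0.26 ± 0.29 and was not called (limma adjusted p = 0.651). That SE comes from 1 spread shared by the 3 lines, also those with few reads of this gene. In a fit on the 4 PC9 libraries the change was 0.26 ± 0.047 and was not called (limma adjusted p = 0.0811). It did not pass without any 1 of the 4 PC9 libraries, with limma adjusted p of 0.183 and 0.186 without control replicate 1 and 2 and of 0.269 and 0.0776 without ZNF263 replicate 1 and 2. It did not pass without ZNF263 replicate 1 (0.0517) or 2 (0.0516) of H1975 either. In HCC827 ALDH3A1 rested on 5 and 0 reads with ZNF263 and 1 and 3 reads in control, and in H1975 on 4 and 1 reads with ZNF263 and 3 and 10 reads in control. No difference was detectable at these depths.

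ALDH3A2 (chromosome 17 at 19648136 to 19677598, plus strand), the fatty aldehyde dehydrogenase that is lost in Sjögren-Larsson syndrome, had 18.9 and 19.5 FPKM with ZNF263 and 28.4 and 29.8 FPKM in control in H1975. Both ZNF263 libraries were lower, and the change was -0.58 ± 0.053 (SE, limma adjusted p = 8.34e-07), or -0.55 less its neighbours. In HCC827 it had 34.4 and 36.2 FPKM with ZNF263 and 31.2 and 31.1 FPKM in control, a change of 0.17 ± 0.053 (limma adjusted p = 0.0382). That call was lost with median-of-ratios scaling (0.12, limma adjusted p = 0.167) and without any 1 of the 4 HCC827 libraries. The limma adjusted p was then 0.0729 and 0.0578 without control replicate 1 and 2, and 0.0700 and 0.193 without ZNF263 replicate 1 and 2. Without PC9 control replicate 2 it was 0.0601 (0.06005 without replicate 1), and without H1975 ZNF263 replicate 1 or 2 it was 0.0527 or 0.0528. In PC9 ALDH3A2 had 87.1 and 93.0 FPKM with ZNF263 and 93.0 and 94.2 FPKM in control, so the groups met, and the change of -0.06 was not called (limma adjusted p = 0.581).

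ALDH7A1 (chromosome 5 at 126531200 to 126595418, minus strand), also called antiquitin and needed for the breakdown of lysine, had 18.5 and 17.4 FPKM with ZNF263 and 12.4 and 13.7 FPKM in control in H1975. Both ZNF263 libraries were higher, and the change was 0.43 ± 0.066 (SE, limma adjusted p = 7.29e-05), or 0.33 less its neighbours. In HCC827 it had 11.2 and 11.4 FPKM with ZNF263 and 9.59 and 10.4 FPKM in control, without overlap. The change of 0.17 was not called (limma adjusted p = 0.0968), although it was without control replicate 2 (0.22, limma adjusted p = 0.0484). In PC9 it had 13.1 and 13.7 FPKM with ZNF263 and 12.7 FPKM in each control library, a change of 0.07 that was not called (limma adjusted p = 0.575).

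The change with ZNF263 differed between lines for 7 of the 8 members tested (limma F test), against 60.4% of 12218 genes with values in each line. For ALDH3A1, 1 of the 7, the HCC827 and H1975 libraries held only 0 to 10 reads, so its change could not show there. With a pseudocount of 0.1 the F test of ALDH3A1 did not pass (limma adjusted p = 0.362). ALDH1A3 had the smallest adjusted p (F test, limma adjusted p = 2.22e-10), and its change in H1975 minus that in PC9 was -2.98 ± 0.11, or -3.57 ± 0.11 against HCC827 (SE, limma adjusted p = 9.64e-10 and 4.88e-10). Its change in HCC827 also exceeded that in PC9, by 0.59 ± 0.11 (SE, limma adjusted p = 0.00571). ALDH2 was higher in H1975 than in HCC827 by 1.05 ± 0.10 in its change (limma adjusted p = 3.04e-06), since it rose in H1975 and fell in HCC827. ALDH3A2 showed the opposite order, with a difference of -0.75 ± 0.075 between H1975 and HCC827 (limma adjusted p = 3.53e-06). The change of ALDH3B1 in H1975 minus that in PC9 was -0.42 ± 0.077 (limma adjusted p = 0.000491), and that of ALDH1B1 was 0.34 ± 0.085 (limma adjusted p = 0.00464). For ALDH7A1 the change was 0.36 ± 0.093 higher in H1975 than in PC9 (limma adjusted p = 0.00514), and its F test (limma adjusted p = 0.0112) was lost in the absence of H1975 control replicate 1 (0.0683) or ZNF263 replicate 1 (0.0615). The F test of ALDH3A1 (limma adjusted p = 0.0414) did not pass without any 1 of the PC9 libraries (0.0530 to 0.190), without H1975 control replicate 2 (0.0887) or without H1975 ZNF263 replicate 1 (0.0599) or 2 (0.0829). That of ALDH1A1 was not called (limma adjusted p = 0.0881), although it was without HCC827 control replicate 1 (0.0324) or 2 (0.00852).

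Averaged over the lines, the log2 change was -1.31 ± 0.046 for ALDH1A3, -0.15 ± 0.035 for ALDH1B1, -0.15 ± 0.031 for ALDH3A2 and 0.22 ± 0.038 for ALDH7A1 (SE, limma adjusted p = 1.06e-09, 0.00299, 0.00113 and 0.00032). The value for ALDH7A1 was above 0 in each line, whereas ALDH1A3, ALDH1B1 and ALDH3A2 had values on both sides of 0. ALDH2 averaged 0.11 and ALDH3B1 0.08 (limma adjusted p = 0.0450 and 0.0479). Among fits with 1 library left out, ALDH2 kept its call only without H1975 control replicate 2 (0.13) or ZNF263 replicate 2 (0.14). Without any other single library it stood at 0.08 to 0.12. Among the same fits ALDH3B1 kept its call only without PC9 ZNF263 replicate 2 (0.09) or HCC827 control replicate 1 (0.10). Without any other single library it stood at 0.06 to 0.09. Neither passed under median-of-ratios scaling (limma adjusted p = 0.0783 and 0.154).

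Of 10 other ALDH genes, 9 were tested. In PC9 ALDH1L1 rose and none fell, where 2 stood higher and 1 lower at an unadjusted p under 0.05 in limma. In HCC827 3 rose and 1 fell, beside 13.0% of all genes higher and 6.44% lower, and in H1975 6 rose and 1 fell, beside 32.1% in each direction. The 1 call in PC9 stands beside 7.21% higher and 4.12% lower. The median change of the 9 was 0.02 in PC9, 0.23 in HCC827 and 0.43 in H1975. ALDH1L2, the mitochondrial enzyme that oxidises formyl-tetrahydrofolate, had 3.64 and 3.66 FPKM with ZNF263 and 1.45 and 1.64 FPKM in control in H1975. It rose by 0.87 ± 0.084 there (SE, limma adjusted p = 1.25e-06), and in HCC827 it had 3.23 and 3.61 FPKM with ZNF263 and 6.41 and 7.19 FPKM in control, a change of -0.82 ± 0.084 (5.19e-05). Its change was 1.69 ± 0.12 higher in H1975 than in HCC827 (limma adjusted p = 1.55e-07).

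ALDH9A1, an enzyme of carnitine synthesis, averaged 63.2 ± 1.04 FPKM with ZNF263 and 45.9 ± 0.919 FPKM in control in H1975 (SD, n = 2 each; change 0.45, limma adjusted p = 3.77e-06). It rose by 0.23 in HCC827 (limma adjusted p = 0.00654), which did not pass without HCC827 ZNF263 replicate 1 (0.21, 0.0605). ALDH18A1, the synthase that starts proline synthesis, and ALDH16A1 rose in H1975 by 0.43 and 0.52. ALDH1L1, the cytosolic counterpart of ALDH1L2, rose in H1975 by 0.55 (limma adjusted p = 0.000251). It also stood at 0.33 in PC9 (limma adjusted p = 0.0434), not called without PC9 control replicate 1 (0.0841) or 2 (0.272), PC9 ZNF263 replicate 1 (0.342), either HCC827 ZNF263 library (0.0577 and 0.0578) or either H1975 control library (0.0559 and 0.0560). In HCC827 it stood at 0.30 (limma adjusted p = 0.0452), not called without any 1 of the HCC827 libraries (0.0954 to 0.17), either PC9 control library (0.0567 and 0.0568) or either H1975 control library (0.0560 each). ALDH5A1, the succinic semialdehyde dehydrogenase, rose by 0.47 in HCC827 (limma adjusted p = 0.00228). ALDH6A1, of valine breakdown, stood at 0.34 in H1975 (limma adjusted p = 0.00509), a call lost without control replicate 1 (0.25, 0.0581) or ZNF263 replicate 1 (0.24, 0.0681). ALDH3B2, the 1 gene of these that fell in H1975, fell by 0.66 there and was listed at 0 in each PC9 library. It reached the minimum only in the H1975 control libraries (1.05 and 1.89 FPKM), so it entered the test through the group where it is high. ALDH4A1, of proline breakdown, was called in none of the lines, and ALDH8A1 did not reach the minimum. Summed over all 19 genes, the level was 243 ± 3.53 FPKM with ZNF263 and 278 ± 2.07 FPKM in control in H1975, a smaller gap than over the 9.

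The genes called around retinoic acid were mostly those of H1975, the line in which 32.1% of all genes were called in each direction. In the list of retinoid uptake and metabolism 16 genes were tested. In PC9 1 rose and 1 fell, beside 7.21% of all genes higher and 4.12% lower. In HCC827 2 rose and 1 fell, beside 13.0% higher and 6.44% lower. In H1975 3 rose and 9 fell, with a median change of -0.44, against 0.00 for all genes there. DHRS9, 1 of the 9, reached the minimum only in the H1975 control libraries (1.10 and 1.42 FPKM). CRABP2, which carries retinoic acid to its receptors, had 9.37 and 8.98 FPKM with ZNF263 and 22.6 and 27.5 FPKM in control in H1975, and fell by 1.35 ± 0.098 (SE, limma adjusted p = 8.53e-08). DHRS3, a retinaldehyde reductase that is itself induced by retinoic acid, had 6.97 and 7.37 FPKM with ZNF263 and 17.99 and 18.8 FPKM in control, and fell by 1.25 ± 0.063 (limma adjusted p = 3.05e-09). RDH5 and RDH13, retinol dehydrogenases, fell by 1.10 and fell by 1.02 in H1975, where their neighbours had medians of -0.54 and -0.69. CYP26B1, which degrades retinoic acid, fell by 0.42 (limma adjusted p = 0.000881), and STRA6, the receptor for retinol uptake, rose by 0.93. FABP5, a second carrier of retinoic acid, fell by 0.76 in H1975, or 0.05 less its neighbours, and fell by 0.67 in HCC827 (limma adjusted p = 8.98e-05). RBP4, the plasma retinol carrier, rose by 0.77 in PC9 (limma adjusted p = 0.000764). DHRS3 stood at -0.30 in PC9 and 0.22 in HCC827. These calls were lost without PC9 control replicate 2 (limma adjusted p = 0.0942) or ZNF263 replicate 2 (0.0840) and without HCC827 control replicate 2 (0.112), ZNF263 replicate 1 (0.0644) or replicate 2 (0.166).

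**Figure D4:**
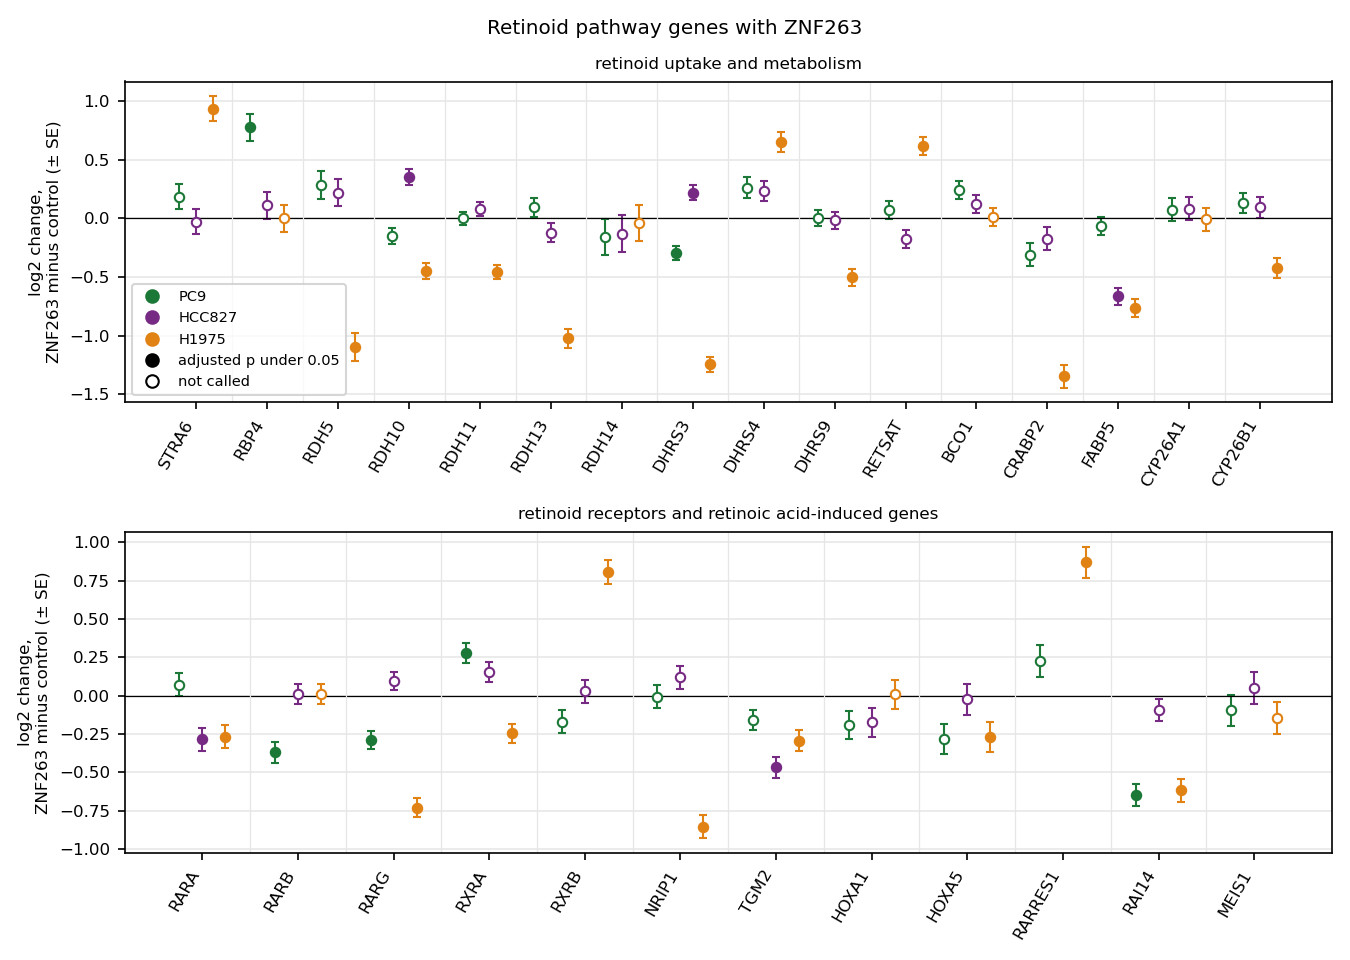
Log2 change, ZNF263 minus control, with its standard error, of the tested genes of retinoid uptake and metabolism (top) and of retinoid receptors and retinoic acid-induced genes (bottom), coloured by line and filled where called at an adjusted p under 0.05. Most filled points are those of H1975, and those of CRABP2 (-1.35), DHRS3 (-1.25), RDH5 (-1.10) and RDH13 (-1.02) reach furthest below 0.

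Among receptors and genes induced by retinoic acid, 12 were tested in PC9 and in H1975 and 11 in HCC827. In PC9 1 rose and 3 fell, beside 7.21% of all genes higher and 4.12% lower. In H1975 2 rose and 7 fell, where 32.1% of all genes were called in each direction. In HCC827 2 fell and 0 rose, beside 13.0% of all genes higher and 6.44% lower, and 1 stood higher at an unadjusted p under 0.05 in limma. RARB, the receptor known as a direct target of retinoic acid, had 10.6 and 10.9 FPKM with ZNF263 and 14.03 and 14.4 FPKM in control in PC9, with a change of -0.37 ± 0.067 (SE, limma adjusted p = 0.00308). RAI14, named for its induction by retinoic acid, fell by 0.65 in PC9 (limma adjusted p = 9.38e-05) and fell by 0.62 in H1975 (8.36e-06). RARG fell by 0.73 in H1975 (limma adjusted p = 2.86e-07), the co-repressor NRIP1 fell by 0.86, and RARRES1 and RXRB rose by 0.87 and 0.80. Less its neighbours RXRB stood at 0.31. TGM2, a transglutaminase induced by retinoic acid, fell by 0.47 in HCC827 (limma adjusted p = 0.000559).

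Alcohol dehydrogenases supply the aldehydes that these enzymes oxidise. Of 7 listed genes 3 were tested. ADH1C and ADH6 rose in PC9, by 1.30 ± 0.083 and 0.86 ± 0.063 (SE, limma adjusted p = 9.32e-07 and 2.58e-06). Over all genes 7.21% were called higher and 4.12% lower in PC9. Both ADH1C and ADH6 reached the minimum only in the PC9 ZNF263 libraries, so they entered the test through the group where they are high. Their count in PC9 is therefore no result about the list. ADH1C had 1.91 and 2.33 FPKM with ZNF263 and 0.346 and 0.192 FPKM in control there. In HCC827 and in H1975 0 of the 3 passed, also at an unadjusted p under 0.05 in limma. In the groups of these lines ADH1C averaged at most 0.409 FPKM and ADH6 at most 0.0169 FPKM, so a change of either was hardly detectable. ADH5, which oxidises glutathione-bound formaldehyde, had 48.7 and 51.3 FPKM with ZNF263 and 46.9 and 45.4 FPKM in control in PC9, and its change of 0.11 was not called (limma adjusted p = 0.194).

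NRF2, a transcription factor that KEAP1 releases under electrophilic stress, is known to drive ALDH3A1 among its targets, and 20 of its other targets were tested. In PC9 1 rose and 1 fell, in HCC827 1 rose and 2 fell, and in H1975 4 rose and 10 fell, with medians of 0.02, 0.00 and -0.14. Over all genes 7.21% were higher and 4.12% lower in PC9, 13.0% and 6.44% in HCC827, and 32.1% in each direction in H1975, so the counts in PC9 and HCC827 are near the background. HMOX1, haem oxygenase, had 22.3 and 25.8 FPKM with ZNF263 and 146 and 135 FPKM in control in H1975, and fell by 2.50 ± 0.11 (SE, limma adjusted p = 5.59e-10). AKR1C2, GCLM and OSGIN1 fell by 1.44, 0.87 and 0.85 in H1975. AKR1C1 stood the other way there, with 1206 and 1104 reads with ZNF263 and 683 and 599 reads in control. In PC9 AKR1C2 had 29222 and 30648 reads with ZNF263 and 38159 and 39789 reads in control, before scaling to depth, and was not called. AKR1C1 stood at 0.48 in PC9 (limma adjusted p = 0.00662), not called without control replicate 2 (0.44, 0.0800) or ZNF263 replicate 1 (0.48, 0.0523) or 2 (0.48, 0.0504). SLC7A11, the cystine transporter, fell by 0.51 in HCC827 (limma adjusted p = 0.00141). The aryl hydrocarbon receptor is the other known inducer of ALDH3A1, and of its list 7 genes were tested. In H1975 2 rose and 3 fell, with AHR up by 1.35 ± 0.081 and ARNT, its partner, by 0.63 (limma adjusted p = 1.40e-08 for AHR). The targets CYP1A1 and TIPARP fell by 1.43 and by 1.11 there (limma adjusted p = 4.76e-06 for CYP1A1). The target CYP1B1 was not called in H1975, with 21405 and 22560 reads with ZNF263 and 21782 and 19167 reads in control. The median change of the 7 genes in H1975 was 0.01. In PC9 1 rose, CYP1B1, by 0.30 (limma adjusted p = 0.00995), a call lost without either control library or ZNF263 replicate 2 (0.0596 to 0.0906). In HCC827 0 of 7 passed in limma, and 3 stood higher at an unadjusted p under 0.05.

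Genes whose pattern was most like that of a member were sought over the 12 libraries, after the mean of each line was taken off each gene. The 12 points share 6 groups, and the values are a description of these libraries. For ALDH1A3 the highest Pearson r were those of PTGS2 (0.995), the inducible cyclooxygenase, ZNF544 (0.995) and NTN4 (0.993), a netrin. For ALDH3A2 they were TYW5 (0.991), EPB41L4B (0.989) and CREG1 (0.987), and for ALDH7A1 they were EDIL3 (0.980), TMX4 (0.978) and CPE (0.977). ALDH2 came closest to TRAF1 (0.979), MIA2 (0.970) and CERS2 (0.965). ALDH3B1 came closest to FAM102A (0.979), the keratin KRT18 (0.954) and ST3GAL6 (0.950). The likeness was lower for ALDH1B1, with DNAJB1 (0.942), a chaperone, ASNS (0.939), the asparagine synthetase, and KLF16 (0.927), and for ALDH3A1, with FZD8 (0.931) and MSC (0.906).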

How the data were processed

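RNA-seq of 12 libraries, 2 for each of 3 lines with ZNF263 or control vector, was analysed. The authors deposited FPKM in 1 table with a column per library, on GRCh38.p13 per the submitters' processing notes. Aligner, counter, annotation and strandedness: not given in the sources used here. Entries with date-like names (27) were left out, and 3383 genes had no value in HCC827 and 3339 none in H1975. A gene was tested if 2 or more libraries reached 1 FPKM. log2(FPKM + 1) was fitted in limma 3.58.1 (R 4.3.3) with a mean per group, 1 spread per gene shared by the 6 groups and a trended prior variance. Benjamini-Hochberg adjustment ran over all genes of a contrast. Tested were the change (ZNF263 minus control) per line, the mean of these changes and, by F test, their difference between lines. Where the median of neighbouring genes was taken off, the p-value used the SE of the gene alone, without the spread of that median. Positions come from GENCODE v29 (GRCh38) and promoters from RefSeq. Reads were recovered from the FPKM steps (with values shuffled between genes, 0.2 to 0.35% came out whole), and scripts were tested on simulated data. Read numbers of the 2 libraries of a group differed by more than sampling (mean chi-square 1.58 to 4.88 over bins of read number, where sampling gives 1), so no library was a second deposit of another; 2 preparations of 1 RNA would differ likewise. Named were the 9 genes, 10 other ALDH genes, up to 4 called genes per list and line by size, and the 3 genes most like each called member, of which 1 is not reported here. CYP26B1, STRA6, ADH5, PTPRC, LUM in HCC827 and, in H1975, FABP5, RAI14, KRT18, CYP1B1 and DHRS9 were named after their values were seen. So were ADH1C and ADH6 outside PC9, AKR1C1 in H1975 and AKR1C2 in PC9. The members and lists were chosen with earlier results of these data known. Protein sequences were not used here.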

Additional observations from a re-analysis of the deposited data

Results flagged for a closer look

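For 7 genes the change with ZNF263 differed between the 3 lines in the limma F test. Of all 12218 genes with values in each line, 60.4% passed the same test, so such a difference is common here. The adjusted p was 2.22e-10 for ALDH1A3, which fell by 3.50 in H1975 and fell by 0.51 in PC9 and stood at 0.07 in HCC827. It was 7.29e-06 for ALDH3A2, which fell by 0.58 in H1975 with values of 0.17 in HCC827 and -0.06 in PC9, and 7.35e-06 for ALDH2, which rose by 0.66 in H1975 and fell by 0.39 in HCC827. The adjusted p was 0.000713 for ALDH3B1, 0.00568 for ALDH1B1, 0.0112 for ALDH7A1 and 0.0414 for ALDH3A1 (limma). That of ALDH3A1 was 0.362 with a pseudocount of 0.1, and its HCC827 and H1975 libraries held only 0 to 10 reads. In H1975 32.1% of all genes were called in each direction, and the summed epithelial marker level was 1946 and 1929 FPKM in ZNF263 libraries and 4362 FPKM in both control libraries. The part of that shift in these differences was not tested.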

How the results depend on the processing

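Of 24 member changes tested, 11 were called, and 4 of these were called under each of 20 alternatives: ALDH1A3, ALDH2, ALDH3A2 and ALDH7A1 in H1975. The other 7 were lost under at least 1, and 5 changes not called were called under some. None of the 11 changed sign. In fits on the 4 libraries of a line, 1 member was called in PC9 in place of 4, and 0 in HCC827 in place of 3, where limma left 3 at an unadjusted p under 0.05. Over all genes these fits called 287 higher and 120 lower of 12623 in PC9, and 430 higher and 204 lower of 12266 in HCC827. Leaving out each library in turn gave 2 to 4 called members in PC9, 1 to 4 in HCC827, 4 in H1975, and 5 to 8 whose change differed between lines. The low counts came without PC9 control replicate 1 or 2 or ZNF263 replicate 2 (2 each) and without HCC827 control or ZNF263 replicate 1 (1 each). Less the median of neighbouring genes, with the SE of the gene alone, 7 members were called in H1975 in place of 4. Over all genes, 3486 of 12220 were then called higher and 3511 lower in H1975. The sign turned there for ALDH3B1 (0.23), ALDH5A1 (-0.31), RDH10 (0.15) and KRT18 (0.20). In H1975 the neighbours' median was beyond 0.3 for 21.5% of genes, and the cause was not tested. Same-numbered libraries hardly deviated together (r = 0.026 in PC9, 0.095 in HCC827, -0.043 in H1975). With 2 libraries a group this cannot settle whether the numbers pair them. With the number as a replicate block, 3 members were called in PC9, 3 in HCC827 and 4 in H1975, and ALDH3A1 in PC9 was not (limma adjusted p = 0.0724). Low read numbers limit ALDH1A2 in each line, ALDH3A1 in HCC827 and H1975 and ALDH1A1 in H1975.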
